A study of Mus musculus with 41 samples.

Results

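Fos encodes a subunit of the AP-1 transcription factor and is an immediate early gene, switched on within minutes when neurons are depolarized. Calcium entry activates kinases that act on CREB and SRF, factors bound near the Fos start site, and on enhancers that flank the gene in neurons. The chromatin of this locus was read from a 90 kb window of chromosome 12 (build mm9, 86770000 to 86860000) that holds Fos at about 86814900 to 86818200 on the plus strand. Every called region or site (peak) that lies wholly inside the window was taken, and no peak crossed its edges. This gave 73 of the 488881 peaks in 27 deposited lists. The gene coordinates are approximate to about 0.1 kb and came with the definition of the window. No mm9 annotation was used here, so exons, introns and untranslated parts of Fos were not placed.

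Its purpose, as deposited, was to map binding of LSD1 and to look at histone marks once LSD1n is deleted. LSD1 is a histone lysine demethylase, and the title calls LSD1n its neuron-specific form that acts on H4K20. Binding and marks were read by chromatin immunoprecipitation with sequencing in mouse primary cortical neurons grown for 10 days in vitro. A bath of 55 mM KCl depolarized the neurons, and samples carry a KCl time of 0 h or 1 h. LSD1n WT and LSD1n KO neurons were used for H3K4me1, H3K36me3, H4K20me1, RNA polymerase II (Pol II) and LSD1, and LSD1n WT neurons alone for H3K4me2. A further pair of LSD1 lists came from neurons labelled wild type, at 0 h and 1 h. Neurons labelled R26/LSD1n or R26/LSD1c supplied the Flag-tagged forms, at both times. The labels do not say which promoter drives the tagged forms, how the KO was made, or whether animals were pooled. The LSD1 list of LSD1n KO neurons has no KCl time in its labels. Neuronal identity was not checked against marker genes, since that needs an annotation of the same build.

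Of 26 groups, 25 hold 1 list, so differences between groups have no replicate check and were not tested. Libraries had between 6990017 and 34859557 tags, of which 0.0806% to 19.6% lay in called peaks. The 4 Pol II lists name the opposite genotype inside their headers to that of their sample labels. Groups below follow the labels, and each Pol II genotype is given as the label only. Shares have exact Clopper-Pearson intervals at 95%, which cover counting error only.

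The promoter is shown because Pol II was called on it in all 4 Pol II lists, whereas no LSD1 form was. The RefSeq table (build GRCm38.p6, plus strand, chr12:85473640-85473889) gives the 250 bases before the start, a different build from that of the peaks. Capitals mark, from left to right, 3 matches. The first is a GC box, spelled CCGCCC. The second is the core of a cAMP response element, the kind of site CREB binds, spelled TGACGT. The last is a TATA box, spelled TATAAA.
Fos promoter: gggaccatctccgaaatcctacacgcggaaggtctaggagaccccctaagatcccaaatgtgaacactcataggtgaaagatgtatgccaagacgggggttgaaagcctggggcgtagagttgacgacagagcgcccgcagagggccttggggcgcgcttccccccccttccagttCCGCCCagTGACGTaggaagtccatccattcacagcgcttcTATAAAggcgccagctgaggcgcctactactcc

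The 3 motifs, searched on both strands, do not overlap each other and begin at bases -74, -66 and -33 from the start. Among 32851 promoters of the same table and length, 32.7% hold the GC box, 6.47% the cAMP response element core and 12.4% the TATA box. These are matches of letters, not measured binding. Sequences of the flanking elements were not used here, as no mm9 genome was at hand.

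The 73 peaks, 45 histone regions and 28 sites of fixed width, fell into 7 loci once overlapping peaks were joined. Positions are given in kb from the Fos start, negative upstream. Peaks of at least 3 antibody targets met at 4 of the loci, named here by their middle. The -37 kb element (86776055 to 86780018) held 11 peaks of 5 targets, and the -18 kb element (86794761 to 86798503) held 15 peaks of 5 targets. The start and gene (86812266 to 86820537) held 24 peaks of 5 targets in 19 lists. The 13 kb element downstream (86826041 to 86829579) held 19 peaks of 6 targets in 16 lists, the largest number of targets at any locus of the window. The 3 other loci held 4 peaks in all, 3 of H3K4me1 and 1 of LSD1.

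Beside other parts of the genome the window was densely called. Among 20131 autosomal windows of the same length with at least 1 peak in any list, the median number of peaks was 14, and 6.80% of windows held 73 or more. The Fos window had a peak in 26 of 27 lists, against a median of 8 lists, and 0.919% of windows reached 26. Sites of Pol II numbered 14 over 4 lists, a number reached by 3.07% of windows. Sites of the LSD1 forms also numbered 14, over 8 lists, reached by 5.02% of windows. The 1 list with no peak in the window was Flag-LSD1n at 0 h, the shortest of the 27, with 940 sites.

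**Figure D1:**
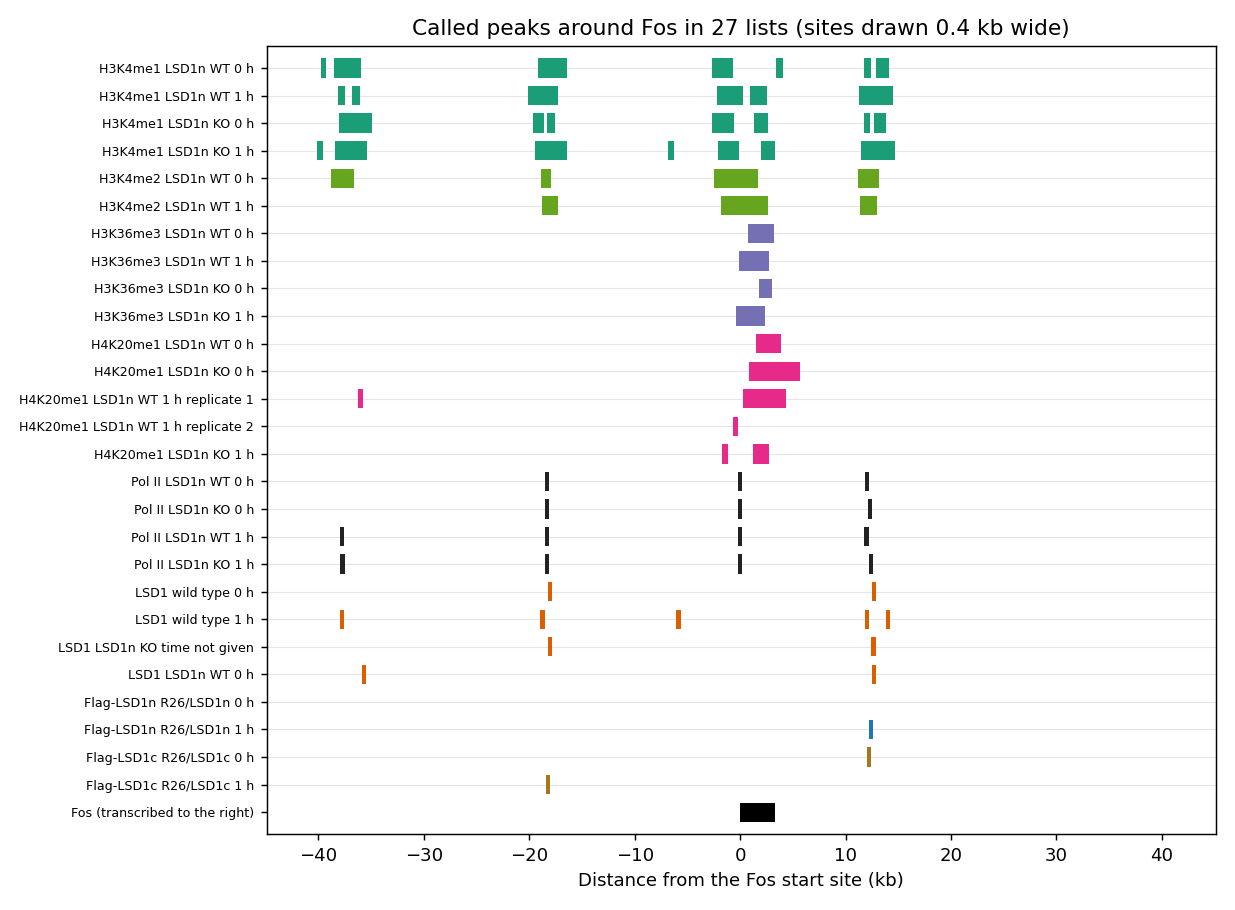
Each row is 1 of the 27 peak lists and each bar 1 of the 73 called peaks, placed by distance from the Fos start in kb (sites of 0.2 kb are drawn wider so that they can be seen). Peaks gather at about -37, -18 and 13 kb and at the gene, and the Flag-LSD1n row at 0 h is empty.

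Pol II, the enzyme that transcribes Fos, was called at the start site in every Pol II list and also away from it, at the -18 kb and 13 kb elements. Sites of 201 bp covered the Fos start in all 4 lists, with centres between 86814856 and 86814884, a span of 28 bp. In the order of the deposited list, this site stood at rank 116 of 13142 in the library labelled WT at 0 h and rank 3 of 14358 at 1 h. In the libraries labelled KO it stood at rank 148 of 14284 and rank 44 of 16264. The lists differ in length and depth and the deposited score is 1 throughout, so these ranks place Fos within each list and give no size of change. For sites of all targets, the scores do not show whether list order follows signal. No Pol II site was called further inside the gene. Sites had to hold 4-fold more tags than the surrounding 10 kb, so Pol II spread along the gene could go uncalled.

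At the -18 kb element Pol II was called at 0 h and 1 h under both genotype labels, with the 4 centres within 29 bp of each other (86796566 to 86796595). The 13 kb element was also called in all 4 lists, over a wider span of 404 bp. There, the sites labelled WT had centres at 12.1 kb (0 h) and 12 kb (1 h), and those labelled KO at 12.3 kb and 12.4 kb. The label WT and the label KO thus stood apart at both times, by 262 bp at 0 h and 404 bp at 1 h. Of 10946 and 12034 sites with a site of the other label within 1 kb, 10.8% and 4.47% lay that far apart, and the median distance was 30 bp at each time. This feature was singled out after its values were seen.

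The -37 kb element had a Pol II site at 1 h alone, under both labels. Of 4 sites at 1 h in the libraries labelled WT, 3 overlapped a 0 h site (75%, 19.4 to 99.4) and 1 did not, the site at -37.8 kb. Over the whole list 34.1% of 1 h sites had no 0 h site. The libraries labelled KO gave the same counts, 1 of 4, with the new site at -37.7 kb and 34.9% over the whole list. The share of new sites in the window was thus near that of each list. Both new sites came late in their lists, at rank 9942 of 14358 and 13957 of 16264. The 1 h libraries were deeper, 21641320 against 14622895 tags for the label WT and 22336241 against 16651225 for the label KO, and the part of depth in the new sites was not tested. Between labels, 1 of 3 KO sites at 0 h and 1 of 4 at 1 h had no overlapping WT site, each time the site of the 13 kb element, where the whole lists had 31.9% and 32.7%.

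H3K4me1, the mono-methylated form of lysine 4 found at enhancers and at the flanks of active promoters, was called at all 3 flanking elements and beside the start in each of its 4 lists. The WT list had 7 regions covering 10377 bp at 0 h and 6 regions covering 11548 bp at 1 h, a log2 ratio of covered length of 0.15. The KO list had 7 regions at each time, covering 10057 bp at 0 h and 13885 bp at 1 h (log2 ratio 0.47). Over the whole genome these log2 ratios were 0.44 in WT and 1.29 in KO, above the values of the Fos window in both genotypes. In a window 20 kb narrower on each side, the WT ratio was 0.48, no longer below that of its list, and the KO ratio 0.57. The KO library at 1 h was also the deepest of the 27.

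Most of these regions were already called at rest. Of 6 WT regions at 1 h, 5 overlapped a 0 h region (83.3%, 35.9 to 99.6). The region without a 0 h counterpart lay inside Fos (86815826 to 86817458), where over the whole list 49.4% of 1 h regions had none. In the other direction 2 of 7 WT regions at 0 h had no 1 h counterpart, against 37.2% of the list: a region of 501 bp at -39.5 kb and a region of 631 bp just past the gene end, at 3.7 kb. In KO, 2 of 7 regions at 1 h were without a 0 h region, against 61.5% of the list. These were 633 bp wide at -39.8 kb and 625 bp wide at -6.5 kb.

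The flanking elements differed in how H3K4me1 stood before and after KCl. At the 13 kb element each genotype had 2 separate regions at 0 h and 1 joined region at 1 h, so that the called length went from 1960 to 3231 bp in WT and from 1810 to 3205 bp in KO. The 2 WT regions of 0 h were separated by the stretch from 86827331 to 86827746. The LSD1 sites called at 0 h in LSD1n WT (86827473 to 86827673) and wild type neurons (86827512 to 86827712) both lay inside that stretch. So did the site of LSD1n KO neurons (86827455 to 86827655), whose list has no KCl time. Between the KO regions of 0 h the stretch ran from 86827253 to 86827591, and the KO site reached past its end. The Flag-LSD1c site of 0 h (86827017 to 86827217) lay inside a WT region of 0 h (86826697 to 86827331). How often LSD1 sites lie in such stretches over the whole lists was not counted. The H3K4me2 region of WT at 0 h (86826041 to 86828073) spanned the stretch. At the -18 kb element the joining was seen in KO alone, from 2 regions of 1738 bp in all to 1 of 3037 bp, while WT had 1 region at both times (2805 and 2885 bp). The -37 kb element went the other way in WT, from 1 region of 2557 bp to 2 pieces of 1350 bp in all. In KO it was called over 3195 bp at 0 h and 3051 bp at 1 h. These joins and splits depend on gaps under 1 kb. With regions within 1 kb merged, WT had 5 regions at 0 h and 4 at 1 h, KO had 5 and 7, and each of the 3 elements was 1 region in every H3K4me1 list.

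**Figure D2:**
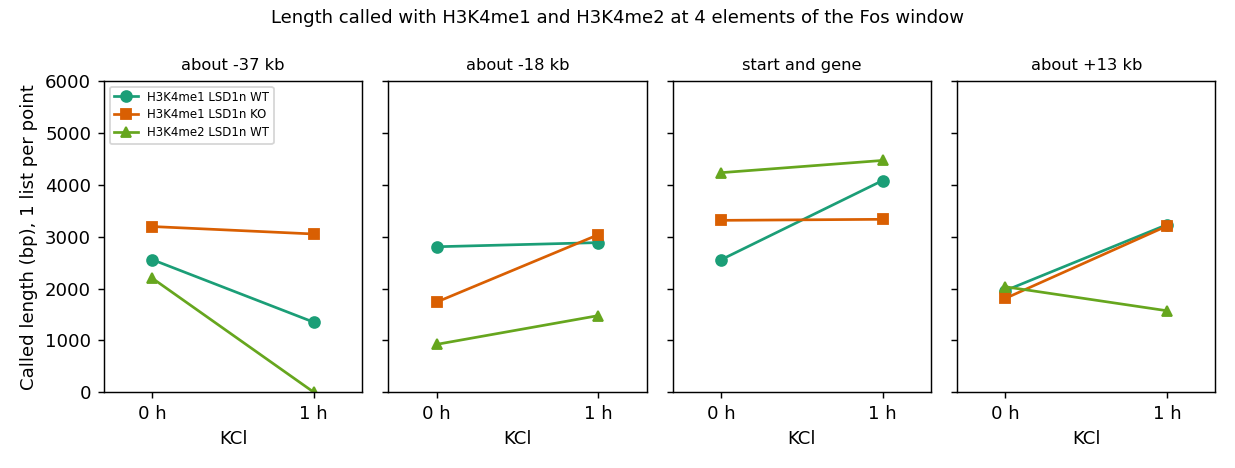
Called length in bp (y axis) at 0 h and 1 h of KCl for H3K4me1 in WT and KO and H3K4me2 in WT, in 1 panel for each of the 4 elements; each point is 1 list, so there are no error bars. At 13 kb the H3K4me1 points at 1 h stand at 3231 bp (WT) and 3205 bp (KO) while H3K4me2 goes from 2033 to 1571 bp, and at -37 kb the H3K4me2 line reaches 0.

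Beside the start, the H3K4me1 region upstream of Fos lay nearer to the gene at 1 h than at rest. The upstream region ran from 86812266 to 86814188 in WT at 0 h, ending 0.7 kb short of the start, and from 86812698 to 86815146 at 1 h, reaching past the start. Its centre moved by 695 bp toward the gene. In KO it moved by 555 bp in the same direction, from 86812280 to 86814284 at 0 h to 86812832 to 86814842 at 1 h. Among regions paired 1 to 1 between times, the median movement was 319 bp in WT and 340 bp in KO, and 13.3% and 26% of pairs moved at least as far. Inside the gene WT had no H3K4me1 at 0 h and 57.0% of the gene covered at 1 h, while KO had 39.7% and 38.6%. The KO region that began inside the gene ran from 86816215 to 86817523 at 0 h and from 86816926 to 86818248 at 1 h. Its centre moved by 718 bp away from the start, a distance reached by 14.8% of KO pairs. Per the file headers, regions were centred on the most likely nucleosome-free stretch, so an edge need not be where tags end.

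Between genotypes 6 of 7 KO regions at 0 h overlapped a WT region (85.7%, 42.1 to 99.6), and the single one without, at 2 kb, was the region inside the gene. Over the list 46.9% of KO regions had no WT region. At 1 h, 2 of 7 KO regions had none, against 50.4% of the list. Covered length in KO over WT was -0.045 on the log2 scale at 0 h and 0.27 at 1 h, where the whole lists gave -0.21 and 0.64. The upper 50% of each list gave 0.13 and 0.31, so the sign at 0 h turned.

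H3K4me2, a mark of promoters and active enhancers that was measured in WT alone, formed its widest region of the window across the Fos start. That region was 4233 bp wide at 0 h (86812406 to 86816638) and 4469 bp at 1 h (86813071 to 86817539). It ranked 371 of 16545 and 164 of 15208 by width within its lists. Its centre moved by 783 bp into the gene, a distance reached by 11.3% of 10344 paired regions, whose median was 330 bp. The gene was covered over 52.7% at 0 h and 80% at 1 h.

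All 3 regions of H3K4me2 at 1 h, that across the start and those at -18 and 13 kb, overlapped a 0 h region, where 20.4% of the whole list did not. The 0 h list had 4 regions, and the 1 without a 1 h counterpart (30.7% of the list) was that at -37 kb, 2199 bp wide. This was the element at which Pol II was called at 1 h alone. At the -18 kb element the region went from 923 to 1477 bp, 1.60-fold wider, a gain reached by 7.14% of pairs, whose median was 0.862-fold. At 13 kb it went from 2033 to 1571 bp. Covered length in the window gave a log2 ratio of -0.32, where the whole list gave -0.41. The sign turned in the narrower window, which leaves out the -37 kb element (0.064). The H3K4me2 libraries were shallow, with 9418008 tags at 0 h and 6990017 at 1 h, the lowest of the 27, and the part of depth in the missing -37 kb region was not tested.

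H3K36me3, which is laid down in the wake of elongating Pol II, was called once in each of its 4 lists, always over Fos and at none of the flanking elements. At rest it lay in the downstream part of the gene, from 86815640 to 86818090 in WT and from 86816702 to 86817936 in KO. At 1 h it reached the start in both genotypes, from 86814821 to 86817605 in WT and from 86814540 to 86817268 in KO. The 5′ edge thus stood at -819 bp in WT and -2162 bp in KO relative to its 0 h place. In WT the centre moved 652 bp upstream, and 18.6% of 3720 pairs moved at least that far. In KO it moved 1415 bp upstream, a distance reached by 0.952% of 525 pairs, whose median was 355 bp. Fos was covered over 74.3% at 0 h and 82.0% at 1 h in WT, and over 37.4% and 71.8% in KO.

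The single H3K36me3 region at Fos overlapped its counterpart by at least 1 bp in each of the 4 comparisons. Where 50% of the region had to overlap, the KO region of 1 h no longer counted as shared with that of 0 h. No 1 h region of the window lacked a 0 h region, 0 of 1 in each genotype, against 75.7% of the WT list and 81.6% of the KO list. The KO region overlapped the WT region at both times, where 61.4% of KO regions at 0 h and 52.9% at 1 h had no WT region. Covered length in KO over WT was -0.99 on the log2 scale at 0 h and -0.03 at 1 h. The whole lists, which also differ in their number of regions, gave -1.79 and -2.77. At 1 h the Fos region was about as wide in KO (2729 bp) as in WT (2785 bp), while the KO list as a whole covered less. Among 1247 and 1273 regions paired 1 to 1 between genotypes, the median width in KO over WT was 0.774-fold at 0 h and 0.568-fold at 1 h. The Fos region was 0.504-fold and 0.980-fold, values that 68.8% and 26.5% of pairs reached. The KO region of 1 h ranked 42 of 3166 by width. The KO libraries had 13147855 and 12572399 tags against 19055899 and 16785574 in WT. Of these tags 0.834% and 0.644% lay in called peaks in KO, against 1.99% and 3.24% in WT. The part of depth and of tags in peaks in the KO movement was not tested.

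**Figure D3:**
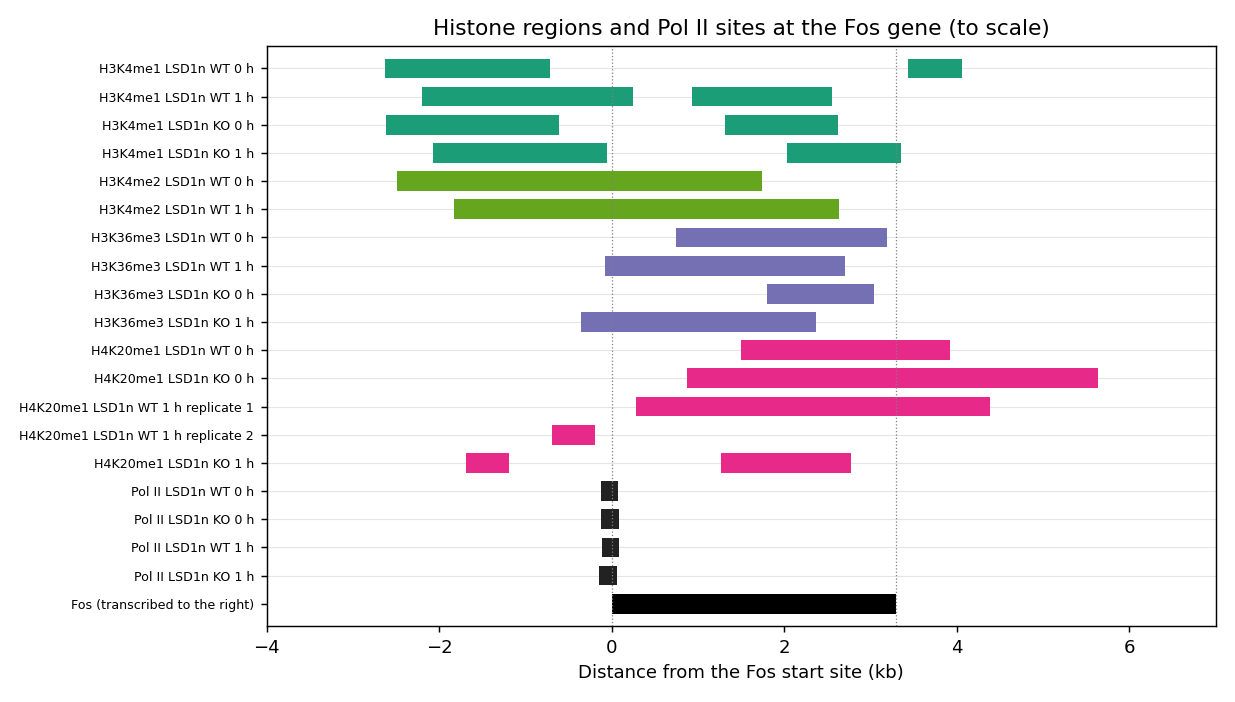
Regions of the 4 histone marks and sites of Pol II from -4 to 7 kb around the Fos start, to scale, with 1 row per list and dotted lines at both ends of the gene. H3K36me3 begins 0.7 kb (WT) and 1.8 kb (KO) past the start at 0 h and reaches it at 1 h, while the upstream H3K4me1 and the H3K4me2 regions shift to the right.

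H4K20me1, a mark found over gene bodies and the one the title links to LSD1n, lay over the downstream part of Fos and beyond its end at rest. At 0 h it ran from 86816403 to 86818819 in WT and from 86815777 to 86820537 in KO, 2417 and 4761 bp wide. The KO region was 1.97-fold wider and overlapped the WT region, where 63.5% of KO regions over the list had no WT region. Among 8671 pairs the median was 1.69-fold, and 43.4% of pairs were widened at least as much, so the Fos region was not far from the list. Fos was covered over 54.5% in WT and 73.4% in KO.

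At 1 h the 2 WT lists of H4K20me1 did not show the same picture. Replicate 1 had a region of 4109 bp from 86815177 to 86819285, which covered 91.6% of the gene, and a region of 501 bp at -36 kb. Replicate 2 had 1 region of 501 bp upstream of the start (86814204 to 86814704) and none over the gene. The lists differed over the whole genome too. Replicate 1 held 28453 regions with 10.2% of its tags in peaks, and replicate 2 held 2844 regions with 0.881%. Covered length in the window was 4610 and 501 bp, a mean of 2555.5 ± 2905.5 bp (SD, n = 2), which spans the 2417 bp of WT at 0 h. Without a 0 h counterpart were 1 of 2 regions of replicate 1 (50.8% of the list) and 1 of 1 in replicate 2 (19.6%). The WT region of 0 h had no counterpart in replicate 2, as was the case for 94.3% of its list. Nothing in the labels says that these lists came from separate cultures.

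In KO at 1 h H4K20me1 was called over 1505 bp of the gene (86816164 to 86817668) and over 501 bp at -1.4 kb. The first of these lay inside the wider 0 h region and the second had no 0 h counterpart, 1 of 2, against 14.4% of the list. Covered length fell by 1.25 on the log2 scale between the KO lists, and fell by 2.95 over the whole list. Of the 2 KO regions at 1 h, 1 overlapped no region of WT replicate 1 (24.2% of the list) and both overlapped none of replicate 2 (84.5%). Replicate 2 and the KO list of 1 h share a title prefix, hs70l2, and within it the gene was covered over 45.6% in KO and 0% in WT. Covered length in KO over replicate 2 was 2.00 on the log2 scale in the window and 1.97 over the whole lists. These values are near each other, but the KO and replicate 2 regions lay at different places. The replicate 2 region, of 501 bp, also had the smallest width of any region in the window. The ratio therefore does not compare the same stretch. The 0 h lists carry the prefix hs60l3 and replicate 1 another, so no prefix holds both KCl times. In WT and in KO, the KCl time and the prefix thus cannot be told apart. The same holds for genotype and prefix where the KO list of 1 h is set against replicate 1.

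LSD1 was called at the flanking elements of Fos and not at its start. In wild type neurons the antibody gave 2 sites at 0 h, at -18 kb and 12.7 kb. At 1 h it gave 5, at -37.7, -18.7, -5.8, 12 and 14 kb. None of the 5 overlapped a 0 h site (0%, 0 to 52.2), against 74.3% of the list without one, and neither 0 h site overlapped a 1 h site, against 79.0%. Within 1 kb, 40% of the 5 had a 0 h neighbour. At the -18 and 13 kb elements the nearest sites of the 2 times were 706 and 675 bp apart, the 1 h site of each pair lying further upstream. Of 10438 sites with a neighbour within 1 kb, 9.08% and 10.5% were at least that far apart, and the median was 236 bp.

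The number of wild type LSD1 sites in the window was 2 at 0 h and 5 at 1 h, while the lists held 22663 and 18457 sites. The log2 ratio was 1.32 in the window and -0.30 over the list. Of autosomal windows, 28.7% held 2 or more sites of the 0 h list and 0.934% held 5 or more of the 1 h list. These shares concern each list on its own and not the change. The library at 1 h was the shallower of the pair, with 19266695 against 24377237 tags. By order in the list the 1 h site at -37.7 kb stood at rank 203 of 18457 and that at -18.7 kb at rank 962. The site at 12 kb stood at rank 3445, and those at 14 and -5.8 kb at ranks 10089 and 15492. The site at -37.7 kb lay 47 bp from the Pol II site of the label WT at 1 h and 10 bp from that of the label KO. In LSD1n WT neurons at 0 h the antibody also gave a site in the -37 kb element, at -35.7 kb, and none at the -18 kb element.

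**Figure D4:**
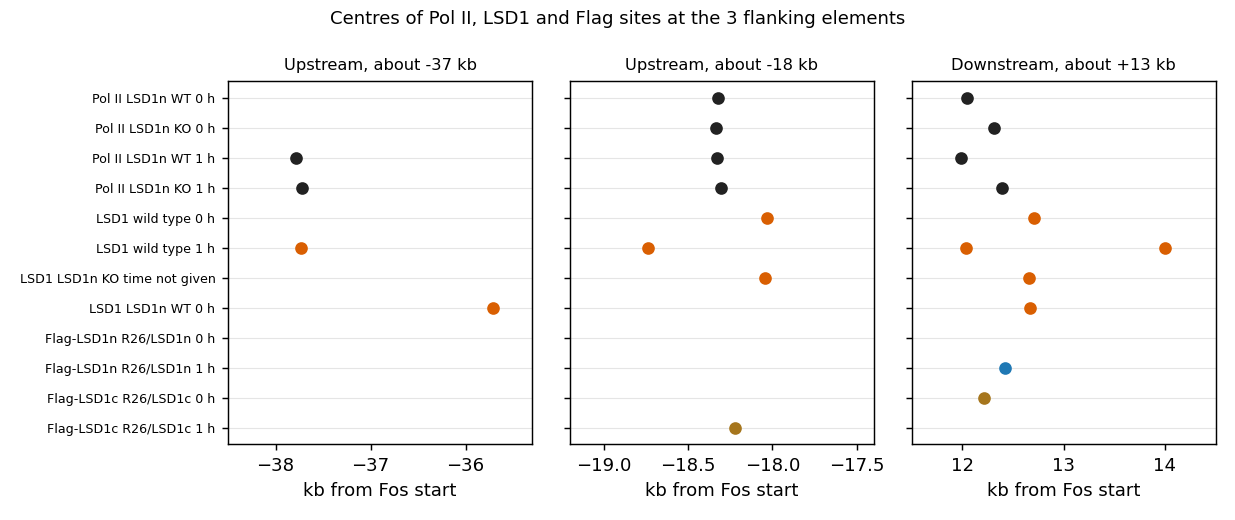
Centres of sites in kb from the Fos start for the 12 lists of Pol II, LSD1 and the Flag-tagged forms at the -37, -18 and 13 kb elements, with 1 point per called site. Pol II centres coincide at -18.3 kb, those at 13 kb fall apart by genotype label, and the wild type LSD1 points at 1 h lie at -18.7 kb beside -18 kb at 0 h, and at 12 and 14 kb on either side of 12.7 kb at 0 h.

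Neurons with and without LSD1n each had 2 LSD1 sites in the window. Both lists had a site at 12.7 kb, with centres 18 bp apart, so the LSD1 antibody called the 13 kb element also in LSD1n KO. The other site lay at -18 kb in KO, 8 bp from that of wild type neurons at 0 h, and at -35.7 kb in WT. Of 2 KO sites 1 had no overlapping WT site (50%, 1.26 to 98.7), against 56.6% of the list. The KO list has no KCl time and another title prefix (hs76l5 against hs76l6), so genotype, time and prefix cannot be told apart there.

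The tagged forms had 3 sites in the window, each of them called once. Flag-LSD1n had none at 0 h and 1 at 1 h, at 12.4 kb (86827221 to 86827421, rank 2037 of 4438). That 1 of 1 site had no 0 h site, as did 90.9% of its list. Flag-LSD1c was called at 12.2 kb at 0 h (86827017 to 86827217, rank 2073 of 3922) and at -18.2 kb at 1 h (86796579 to 86796779, rank 4327 of 5480). Its 1 site at 1 h was new, against 75.9% of the list, and its 1 site at 0 h had no 1 h site, against 66.3%. At 1 h the Flag-LSD1n site had no overlapping Flag-LSD1c site, as did 65.8% of the LSD1n list. With 1 site or none per list these calls describe single sites, and the isoforms have different title prefixes.

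At the start of Fos no LSD1 form was called in any of the 8 lists. The nearest site in 6 of the 7 lists with sites in the window lay between 12.2 and 12.7 kb downstream or at -18.2 kb, and in wild type neurons at 1 h at -5.8 kb. Among the first 100 Pol II sites of the list labelled WT at 1 h, where Fos stands at rank 3, 72 had a wild type LSD1 site of 1 h within 1 kb, 67 a Flag-LSD1c site and 38 a Flag-LSD1n site of that time. Fos was among those without. In the other LSD1 and Flag lists the number ran from 10 (Flag-LSD1n at 0 h) to 58 (wild type at 0 h) of the first 100. Over all sites of that Pol II list the shares were 59.5% for wild type LSD1, 36.1% for Flag-LSD1c and 29.0% for Flag-LSD1n at 1 h. A Pol II site without an LSD1 site within 1 kb was thus common. Sites had to hold 4-fold more tags than the surrounding 10 kb to be called, so a broad or weak signal at the start would not appear in these lists.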

How the data were processed

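Peak lists were deposited for 27 of 41 samples, 15 of histone regions and 12 of sites, and all 27 were used. GRO-seq (10 samples) and RNA-seq (4 samples) were not analysed here. Bowtie, HOMER and build mm9 stand in the submitters' processing notes, without versions. Per the file headers, HOMER stitched 500 bp histone peaks (minimum distance 1250 bp), centred them on the likely nucleosome-free stretch, and called sites of 200 bp at a minimum distance of 500 bp and 4-fold over the local 10 kb. All used a false discovery rate of 0.001 and fragments of 150 bp, and no header names a control library. Each entry carries a deposited score of 1, so only positions were used, counted from 1, and ranks are by width (regions) or list order (sites).

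Peaks wholly inside the window were joined into loci where they overlapped. A peak was shared when it overlapped by at least 1 bp, and each count was set beside the same over the whole list. Covered length was compared for regions and the number of sites for sites. Full descriptions cover loci with 3 or more targets. Autosomes were tiled in 90 kb windows for context. The windows most like that of Fos were the 3 with the highest Pearson's r over lists. Planned lists of other immediate early genes and cell type markers were not run, since no annotation of build mm9 was used. The promoter came from the RefSeq table by symbol (1 of 1 matched). Alternatives were counting every peak that overlaps the window, a window 20 kb narrower on each side, the upper 50% of each list, merging within 1 kb, other overlap rules and equal list lengths. The window and these choices were made with earlier results of these data known. Overlap code was tested on simulated lists. Python 3.11.15, numpy 2.4.6, scipy 1.17.1 and matplotlib 3.10.9 were used.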

Additional observations from a re-analysis of the deposited data

Results flagged for a closer look

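H3K4me1 in the Fos window differed in sign between the 2 times when KO was set against WT. Covered length in KO over WT was -0.045 on the log2 scale at 0 h and 0.27 at 1 h. Each value rests on 1 list per group, and the difference between them was not tested. The whole lists had the same signs. In the upper 50% of each list the values were 0.13 and 0.31, so the difference in sign was lost, and in the narrower window the 1 h value was 0.00042.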

How the results depend on the processing

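All 73 peaks were counted when any overlap with the window sufficed, and the upper 50% of each list held 47. Ratios were held to be unchanged within 1.5-fold, shares within their 95% interval. With the narrower window the H3K4me2 log2 ratio of 1 h over 0 h turned to 0.064, as the -37 kb region falls outside, and LSD1 in KO over WT became 1, also in the upper 50%. In the upper 50% of the lists H3K4me1 in KO over WT at 0 h turned to 0.13. There Pol II of 1 h over 0 h became 1.58 (label WT), and KO over WT at 1 h -1.58. Without replicate 1 or replicate 2, H4K20me1 of WT at 1 h over 0 h was -2.27 or 0.93 (0.080 with the mean of both), and KO over WT at 1 h was 2.00 or -1.20 (-0.35 with the mean). Within 1 kb, 100% of sites or regions were shared for H3K4me1 of WT (1 h in 0 h), H3K4me1 at 0 h (KO in WT) and Pol II at both times (KO in WT). With equal list lengths 100% were shared for H3K4me1 of KO and H4K20me1 of WT replicate 1 (1 h in 0 h). At an overlap of 50% of the region 0% was shared for H3K36me3 of KO (1 h in 0 h). The cause was not tested in the other cases. No ratio could be formed for Flag-LSD1c over time in the upper 50% or with equal lengths, or for the isoforms at 1 h in the upper 50%, where a list held no site. No paired analysis was possible because the labels give no replicate numbers, and the groups compared share at most 1 title prefix, with 1 list of each group in it.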

Other observations

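By the number of peaks per list, the 3 autosomal windows of 90 kb most like the Fos window, of 4838 with at least 50% as many peaks, began at 149770001 of chromosome 5, at 86680001 of chromosome 7 and at 40960001 of chromosome 9. Pearson's r over the 27 lists of log2(1 + number of peaks) was 0.916, 0.909 and 0.908. These windows had peaks in 13, 14 and 17 lists, against 26 for the Fos window. All windows share the same libraries and list lengths.

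The loci with 1 target lay at -40 kb, where H3K4me1 was called in WT at 0 h and in KO at 1 h, and at -7 and -6 kb. At the last pair H3K4me1 was called over 625 bp in KO at 1 h (86808049 to 86808673). An LSD1 site of wild type neurons at 1 h lay beside it (86808960 to 86809160).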
